A study of Mus musculus with 8 samples.

Results

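The genes described are 9 components of the tight junction: the claudins *Cldn1*, *Cldn2*, *Cldn3*, *Cldn5*, *Cldn12* and *Cldn14*, the MARVEL-domain protein gene *Ocln* (occludin), the scaffold gene *Tjp1* (ZO-1) and the adhesion molecule gene *F11r* (JAM-A). They were taken by gene symbol from the 24940 genes of a liver RNA-seq count table, and all 9 passed the expression filter that left 12340 genes for testing. The table held 8 livers of male C57BL/6 mice, 4 FXRKO and 4 BCL6LKOFXRKO. All 8 mice were homozygous for floxed *Bcl6* and for the whole-body *Fxr* (*Nr1h4*) knockout allele. The BCL6LKOFXRKO mice also carried Alb-Cre, a transgene in which the albumin promoter drives Cre recombinase and so deletes *Bcl6* in hepatocytes. The FXRKO mice had no Cre, so loss of *Bcl6* and presence of the transgene cannot be told apart here. The study's methods give mice as fed ad libitum or fasted for 4 h unless stated otherwise, without saying which applied to these livers, and their age is not given in the sources used here. Mice with intact *Fxr* were not analysed here. In the study, the double knockout served to ask what the liver loses when both regulators of bile acids are missing. These 9 genes code for tight junction components, and tight junctions between hepatocytes keep bile apart from blood.

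Tight junctions ring the bile canaliculus, the channel between neighbouring hepatocytes, and close the gap between the cells so that bile does not leak back toward the sinusoidal blood. Claudins span the membrane and set which ions and solutes pass between cells. Some claudins tighten the seal, while claudin-2 forms a channel for small cations and water. Occludin and JAM-A lie beside the claudins in the membrane, and ZO-1 binds many of these proteins from the inside and ties them to actin. Liver endothelium and bile duct epithelium have junctions of their own, so a bulk liver library mixes the transcripts of several cell types.

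Sequence is shown for *Cldn12*, *F11r* and *Cldn5*, because the results turn on these 3 genes. The 250 bases upstream of the start of the counted transcript are given for each, 5′ to 3′ on the strand of the gene, from RefSeq on GRCm38.p6 (the mm10 assembly). All 9 genes matched a promoter entry whose start was that of the deposited transcript. Capitals mark matches on either strand to any of 6 motifs. The promoter motifs were the GC box, written GGGCGG, the box named by its letters CCAAT, and the TATA box, written TATAAA. The factor motifs were the spaced core shared by BCL6 and STAT sites (TTCNNNGAA), a longer BCL6 site (TTCCTNGAA) and the FXR inverted repeat, in which the half-site AGGTCA is followed after 1 base by its reverse complement. The longer BCL6 site is contained in the spaced core.
Cldn12, chr5:5514977-5515226, minus strand: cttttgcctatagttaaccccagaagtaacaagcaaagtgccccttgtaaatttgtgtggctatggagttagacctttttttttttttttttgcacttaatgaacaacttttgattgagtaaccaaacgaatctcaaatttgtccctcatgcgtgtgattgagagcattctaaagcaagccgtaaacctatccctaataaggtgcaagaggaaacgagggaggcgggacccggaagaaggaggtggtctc
F11r, chr1:171437311-171437560, plus strand: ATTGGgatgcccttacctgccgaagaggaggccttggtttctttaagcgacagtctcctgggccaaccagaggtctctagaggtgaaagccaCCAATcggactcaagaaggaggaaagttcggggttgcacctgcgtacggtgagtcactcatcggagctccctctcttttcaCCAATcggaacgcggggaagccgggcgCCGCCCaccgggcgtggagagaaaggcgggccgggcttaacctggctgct
Cldn5, chr16:18776597-18776846, plus strand: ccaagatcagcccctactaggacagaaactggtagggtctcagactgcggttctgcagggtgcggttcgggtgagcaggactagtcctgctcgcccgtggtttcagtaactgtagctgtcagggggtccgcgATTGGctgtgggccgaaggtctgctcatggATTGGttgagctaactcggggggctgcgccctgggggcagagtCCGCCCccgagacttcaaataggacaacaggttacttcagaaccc

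The *Cldn12* stretch held none of these 6 motifs and had 42.0% G and C, with a GC content above only 15.9% of the 32851 upstream windows of the same length. The *F11r* stretch had 60.0% G and C, 3 CCAAT boxes and 1 GC box. The *Cldn5* stretch had 59.6% G and C, with 2 CCAAT boxes and 1 GC box. Among the 9 genes, a GC box was found upstream of 6, against 32.7% of all windows, and a CCAAT box upstream of 3, against 33.8%. The spaced BCL6 core was found upstream of 1, *Cldn14*, against 7.02% of all windows. The longer BCL6 site and the FXR repeat were found upstream of none of the 9 and in 1.31% and 0.00609% of all windows. *Cldn2* alone of the 9 had a TATA box, which 12.4% of windows held. A match is only a run of letters in this window, and no match says nothing of sites elsewhere.

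The deposited gene counts summed to between 7586241 and 11839503 per liver. *Bcl6* itself was at 21.2 to 65.2 CPM in FXRKO livers and at 4.61 to 11.9 CPM in BCL6LKOFXRKO livers, so the targeted gene followed the labels in all 8. CPM are counts scaled to a common library size by TMM, which adjusts for libraries in which a few genes take many reads. The 50 most counted genes took 31.2 to 32.6% of counts in FXRKO and 41.7 to 45.1% in BCL6LKOFXRKO livers. *Nr1h4* was still counted, at 56.7 to 62.6 CPM in FXRKO and 39.4 to 48.1 CPM in BCL6LKOFXRKO livers. It was lower in BCL6LKOFXRKO livers without overlap, with a log2 fold change of -0.46 (edgeR adjusted p = 0.00497). Counts alone do not show whether a working receptor is made. All 8 hepatocyte markers searched passed the filter, so the libraries held liver transcripts as labelled. BCL6LKOFXRKO liver 4 stood apart from the other 3 livers of its genotype on the second principal component, at -29.8 against 6.0 to 21.1. The log2 fold changes of *Cldn3*, *Cldn5* and *Tjp1* are given with and without this liver.

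Of the 9 genes, 2 rose in BCL6LKOFXRKO livers (*F11r* and *Cldn5*), 1 fell (*Cldn12*) and 6 did not pass the test. Calls were made with edgeR's quasi-likelihood test at a Benjamini-Hochberg adjusted p under 0.05 over all 12340 genes. That share, 33.3%, stands beside 29.7% of all tested genes called in either direction, 16.2% higher and 13.5% lower, so the 9 were called about as often as genes in general. The same 3 were called where a log2 fold change above 0.5 in size was also required, a rule that 23.9% of tested genes met. The 3 called genes were also the only 3 of the 9 whose livers did not overlap between genotypes, a separation seen in 31.3% of tested genes. The median log2 fold change of the 9 was 0.10, against 0.01 over all tested genes. BCL6LKOFXRKO is always compared with FXRKO, and no p was adjusted over the 9 genes alone.

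**Figure D1:**
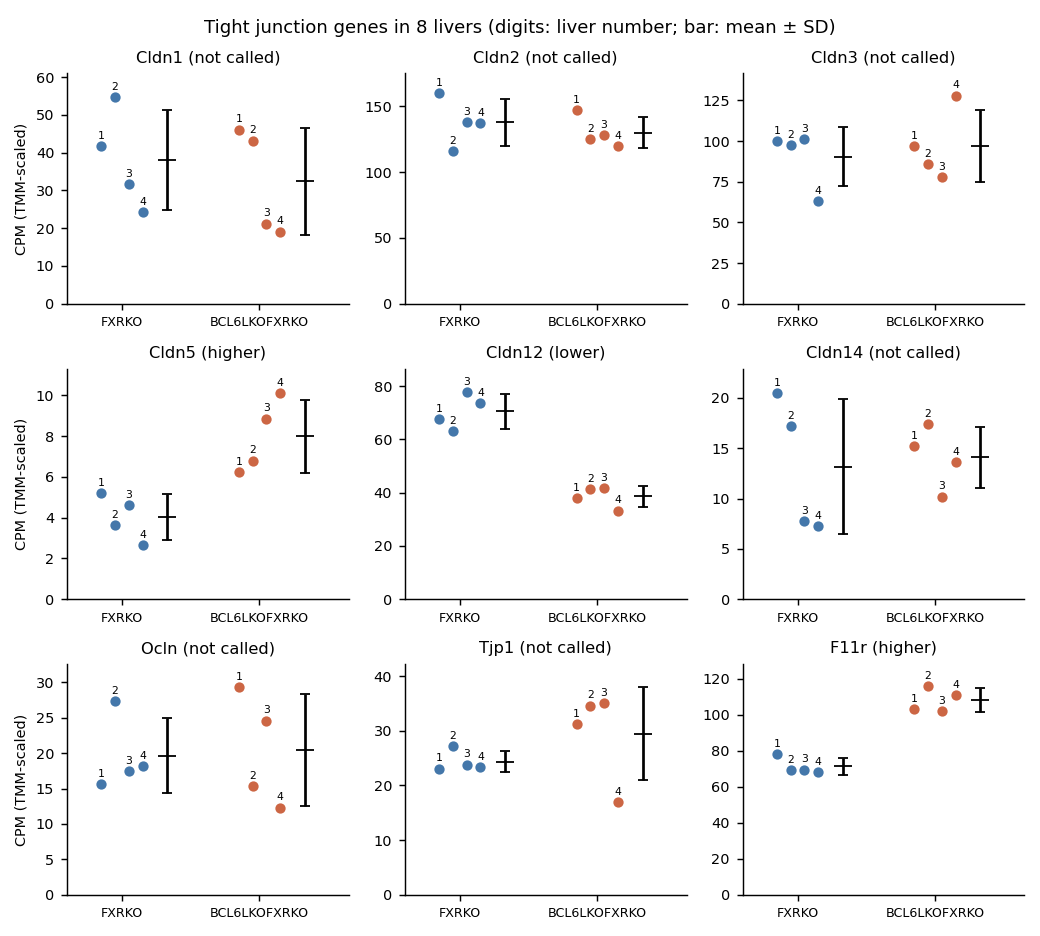
Level of each of the 9 genes in each liver, in TMM-scaled CPM from 0 (y axis), for FXRKO (blue) and BCL6LKOFXRKO (orange) livers. Digits are liver numbers, and black bars are the mean and SD of 4 livers. *Cldn12* lies lower, and *F11r* and *Cldn5* higher, in all 4 BCL6LKOFXRKO livers than in any FXRKO liver.

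*Cldn12* codes for a claudin that lacks the C-terminal PDZ-binding motif by which most claudins hold ZO proteins. It was counted on transcript NM_022890, on mm10 chromosome 5 from 5505015 to 5514976, which has 4 exons. Its level was 67.7, 63.0, 77.9 and 73.5 CPM in FXRKO livers 1 to 4 and 38.1, 41.3, 41.7 and 33.3 CPM in BCL6LKOFXRKO livers 1 to 4. The lowest FXRKO liver was well above the highest BCL6LKOFXRKO liver. The mean fell from 70.5 ± 6.54 to 38.6 ± 3.86 CPM (SD, n = 4 each), a log2 fold change of -0.87 (SE 0.12, edgeR adjusted p = 0.000114). In an exact permutation test, two-sided, p was 0.029, which is the lowest value possible with 4 livers in each group. The fall was between -0.93 and -0.81 on the log2 scale with each liver left out in turn, and it was called in every such fit.

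*F11r* codes for JAM-A, an immunoglobulin-type adhesion molecule that helps place the polarity complex at new junctions and is also made by endothelium, platelets and leukocytes. Its transcript NM_172647 has 10 exons on chromosome 1 from 171437561 to 171464593. It was at 78.1, 69.4, 69.5 and 68.2 CPM in FXRKO livers and at 103, 116, 102 and 111 CPM in BCL6LKOFXRKO livers. Spread within each genotype was the smallest of the 9 genes, with a coefficient of variation of 6.38% and 6.53%. The log2 fold change was 0.60 (SE 0.10, edgeR adjusted p = 0.000759), with the exact permutation test at p = 0.029, and all 4 BCL6LKOFXRKO livers were higher. It lay between 0.55 and 0.64 with any 1 liver left out.

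*F11r* and *Cldn12* were counted almost equally in FXRKO livers and unequally in BCL6LKOFXRKO livers. The ratio of their CPM within a liver, which no scaling between libraries can move, was 1.15, 1.10, 0.892 and 0.928 in FXRKO livers. It was 2.69, 2.82, 2.44 and 3.34 in BCL6LKOFXRKO livers. The pair was chosen because the 2 genes moved apart, so the ratio is a description without a test.

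*Cldn5* codes for the claudin that seals endothelial junctions, best known from the blood-brain barrier. It is a gene of 1 exon (NM_013805, chromosome 16 from 18776847 to 18778262). It was the lowest of the 9 in counts, with 28 to 50 counts in FXRKO livers and 56 to 111 in BCL6LKOFXRKO livers, so its single values are the least precise. The levels were 5.20, 3.62, 4.62 and 2.65 CPM, then 6.24, 6.80, 8.86 and 10.1 CPM. The level was 1.99 times as high by the fitted fold change, with a 95% interval of 0.48 to 1.51 on the log2 scale (edgeR adjusted p = 0.00736). The exact permutation test gave 0.029, and all 4 BCL6LKOFXRKO livers were above every FXRKO liver. Without BCL6LKOFXRKO liver 4, the highest, the log2 fold change was 0.86 with an edgeR adjusted p of 0.0207.

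Other endothelial genes were set beside *Cldn5*. Of 14 endothelial markers, all tested, 3 rose and none fell, 21.4% called against 29.7% of all tested genes. The median over the list was 0.35 on the log2 scale, and the summed level of the list was 226 to 300 CPM in FXRKO and 321 to 417 CPM in BCL6LKOFXRKO livers. The 3 that rose were *Vwf*, *Stab2* and *Eng*, named after their values were seen, with log2 fold changes of 1.60, 0.63 and 0.45. The pan-endothelial junction genes *Pecam1* and *Cdh5* did not pass, with log2 fold changes of 0.20 (edgeR adjusted p = 0.306) and -0.06 (edgeR adjusted p = 0.773). *Cldn5* counts per *Pecam1* count were 0.338, 0.204, 0.293 and 0.152 in FXRKO and 0.416, 0.364, 0.414 and 0.476 in BCL6LKOFXRKO livers, without overlap. Per *Cdh5* count the ranges were 0.0969 to 0.284 and 0.281 to 0.507, which overlapped. The part of the endothelial markers in the rise of *Cldn5* was not tested, and in bulk tissue more cells of a type and more RNA per cell cannot be told apart.

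**Figure D2:**
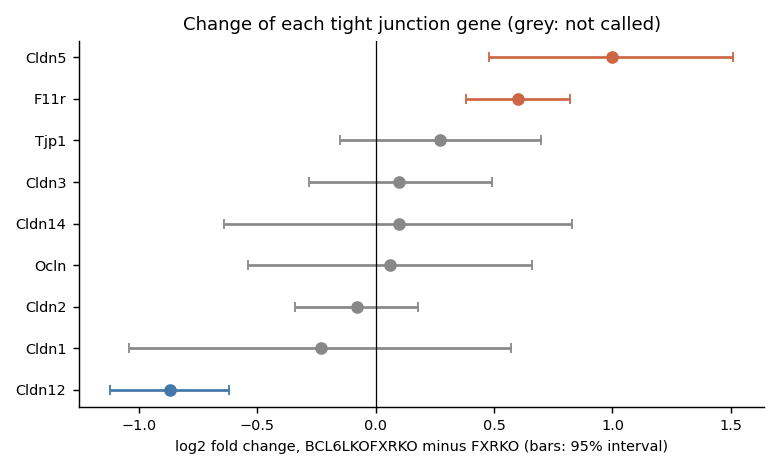
Log2 fold change of each gene, BCL6LKOFXRKO minus FXRKO (x axis), with its 95% interval from edgeR's quasi-likelihood fit as bars. Orange is called higher, blue called lower and grey not called. The intervals of *Cldn1*, *Cldn14* and *Ocln* are the widest of the genes not called, and that of *Cldn2* is the narrowest.

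*Cldn2*, the channel-forming claudin, rises from the periportal to the pericentral part of the lobule. It was measured closely and did not pass the test. The levels were 160, 116, 138 and 137 CPM in FXRKO livers and 147, 125, 128 and 120 CPM in BCL6LKOFXRKO livers. All 4 BCL6LKOFXRKO livers fell inside the range of the FXRKO livers. The log2 fold change of -0.08 had a 95% interval from -0.34 to 0.18 (edgeR adjusted p = 0.642). Among 10 pericentral hepatocyte markers, 3 were called higher and 1 lower, 40% against 29.7% of all tested genes in either direction. The 3 higher were *Slc1a2*, *Rhbg* and *Gulo*, with log2 fold changes of 1.68, 1.04 and 0.54, and the 1 lower was the P450 gene *Cyp2e1*, at -1.92, all 4 named after their values were seen. The summed level of the 10 was 13300 to 17800 CPM in FXRKO and 5280 to 8610 CPM in BCL6LKOFXRKO livers. Without *Cyp2e1* the other 9 summed to 4130 to 4690 and 3160 to 5160 CPM, which overlapped. The pericentral gene *Glul* had a log2 fold change of -0.31 (edgeR adjusted p = 0.209).

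*Cldn3*, a sealing claudin of hepatocytes and bile ducts, was the most abundant of the 9 by RPKM (CPM per kilobase of transcript), at 71.9 ± 14.5 in FXRKO and 77.2 ± 17.6 in BCL6LKOFXRKO livers (SD, n = 4 each). Its CPM were 100, 97.5, 101 and 63.2, then 97.1, 85.9, 77.7 and 128. One liver of each genotype lay away from its group, FXRKO liver 4 below and BCL6LKOFXRKO liver 4 above. The log2 fold change was 0.10 with a 95% interval from -0.28 to 0.49 (edgeR adjusted p = 0.696). Its sign changed to -0.06 without BCL6LKOFXRKO liver 4, to -0.04 without FXRKO liver 4 and to -0.06 with total counts alone. *Cldn3* has 1 exon, and its exons share at most 40 bases with those of *Wbscr25* on the opposite strand. No other member's exons overlapped those of another GENCODE gene.

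*Cldn1*, a sealing claudin whose loss in people causes ichthyosis with sclerosing cholangitis, differed more between livers of a genotype than between genotypes. It was at 41.7, 54.7, 31.6 and 24.3 CPM in FXRKO livers and at 46.1, 43.2, 21.2 and 19.1 CPM in BCL6LKOFXRKO livers. In both genotypes livers 1 and 2 were higher than livers 3 and 4. The coefficients of variation were 34.6% and 43.9%, and the log2 fold change of -0.23 had an interval from -1.04 to 0.57 (edgeR adjusted p = 0.658). A change of the size seen in *Cldn12* lay inside that interval.

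*Cldn14*, a claudin that bars cations and is known from inherited deafness, was split in the same way among FXRKO livers, at 20.5 and 17.2 CPM in livers 1 and 2 and at 7.74 and 7.29 CPM in livers 3 and 4. BCL6LKOFXRKO livers were at 15.2, 17.4, 10.2 and 13.6 CPM, inside the FXRKO range. The log2 fold change was 0.10 with an interval from -0.64 to 0.83 (edgeR adjusted p = 0.851). The numbers of the livers are names only, and the labels tie them to no batch.

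*Ocln* was at 15.6, 27.4, 17.5 and 18.2 CPM in FXRKO livers and at 29.3, 15.4, 24.6 and 12.3 CPM in BCL6LKOFXRKO livers. Among BCL6LKOFXRKO livers, 1 and 3 were higher than 2 and 4, and the genotypes overlapped. The log2 fold change of 0.06 had an interval from -0.54 to 0.66 (edgeR adjusted p = 0.893).

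*Tjp1*, the ZO-1 gene, turned on 1 liver. It was at 23.1, 27.2, 23.8 and 23.3 CPM in FXRKO livers, a tight group, and at 31.3, 34.6 and 35.1 CPM in BCL6LKOFXRKO livers 1 to 3, all above it, but at 17.0 CPM in liver 4, below it. With all 8 livers the log2 fold change was 0.27 (SE 0.20, edgeR adjusted p = 0.314) and *Tjp1* was not called. Without BCL6LKOFXRKO liver 4 it was 0.47 (SE 0.10, edgeR adjusted p = 0.00608). Liver 4 was also the lowest BCL6LKOFXRKO liver for *Cldn1*, *Cldn2*, *Cldn12* and *Ocln* and the highest for *Cldn3* and *Cldn5*.

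By RPKM, the order in FXRKO livers was *Cldn3*, *Cldn2*, *F11r*, *Cldn12*, *Cldn1*, *Cldn14*, *Ocln*, *Tjp1* and *Cldn5*. The neighbours *Cldn2* and *F11r*, and *F11r* and *Cldn12*, did not overlap in range, while all other neighbours did. *F11r* was at 28.9 ± 1.84 RPKM and *Cldn12* at 18.6 ± 1.73 (SD, n = 4). In BCL6LKOFXRKO livers *F11r*, at 43.7 ± 2.85 RPKM, stood level with *Cldn2* at 42.5 ± 3.76. *Cldn12*, at 10.2 ± 1.02 RPKM, overlapped *Cldn1*, which ran from 5.89 to 14.3, and *Cldn5* moved from ninth to seventh, at 5.66 ± 1.27 RPKM (SD, n = 4 in each case). *Cldn3* was above 92.8% of tested genes in FXRKO livers and *Cldn5* above 35.9%.

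**Figure D3:**
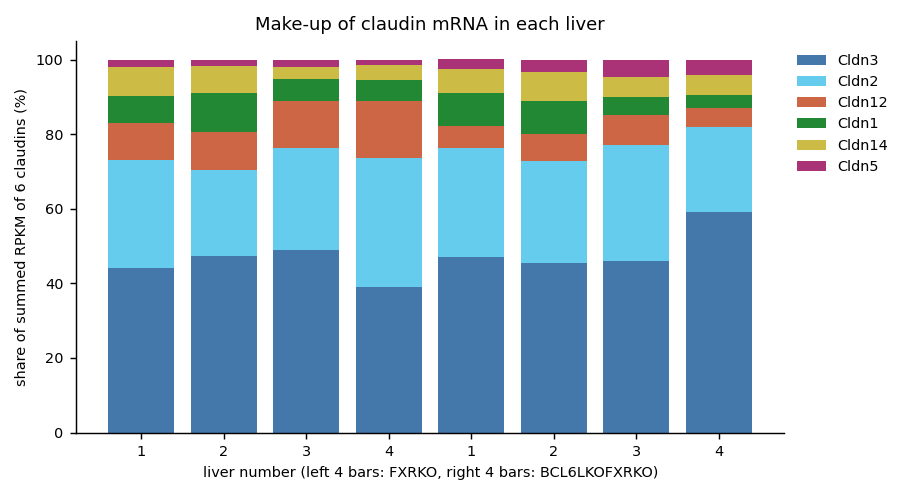
Share of each of the 6 claudins in their summed RPKM, in percent (y axis), for FXRKO livers 1 to 4 (left) and BCL6LKOFXRKO livers 1 to 4 (right). *Cldn3* and *Cldn2* fill most of every bar, and the *Cldn12* segment is shorter in each BCL6LKOFXRKO liver than in any FXRKO liver.

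The summed RPKM of the 6 claudins overlapped between genotypes, at 129 to 181 in FXRKO and 134 to 172 in BCL6LKOFXRKO livers. *Cldn12* made up 11.9 ± 2.41% of the sum in FXRKO and 6.67 ± 1.34% in BCL6LKOFXRKO livers (SD, n = 4). *Cldn5* made up 1.76 ± 0.293% and 3.68 ± 0.893%. These 2 shares did not overlap between genotypes, and those of the other 4 claudins did. *Cldn3* and *Cldn2* were the first and second in every liver, with means of 44.9% and 28.6% in FXRKO and 49.3% and 27.6% in BCL6LKOFXRKO livers.

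Of the claudins, 3 lie on chromosome 16 with the floxed *Bcl6* gene, *Cldn1* at a distance of 2.38 Mb, *Cldn5* at 5.19 Mb and *Cldn14* at 69.94 Mb. All 8 mice carried the floxed allele by their labels. Of these 3, *Cldn5* was called, and *Cldn1* and *Cldn14* were not. Whether nearness to *Bcl6* has a part in these values was not tested.

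The genes most like *F11r* over the 8 livers, by Pearson correlation of log2(CPM + 1), were *Crip1* (r = 0.993), *Pea15a* (r = 0.992) and the transferrin gene *Trf* (r = 0.992). Those most like *Cldn12* were *March8* (r = 0.996), *F2r* (r = 0.994) and *Gba2* (r = 0.992). Each was picked from 9043 genes with a mean of at least 50 counts and a gene name that is not a provisional one, and all 8 livers enter with the genotype difference in place, so genes that differ between genotypes come first. *F2r* codes for the thrombin receptor PAR1 and *Gba2* for a glucosylceramidase that also acts on bile acid glucosides.

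Other genes of cell junctions were taken from 7 lists of 101 symbols in all, of which 100 were in the table and 72 were tested. Of the 72, 11 rose and 12 fell, 31.9% against 29.7% of all tested genes, and their median log2 fold change was 0.04. The 101 entries were listed by role. The genes named are the called ones with the smallest adjusted p in each list and direction, and others are stated as exceptions.

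**Figure D4:**
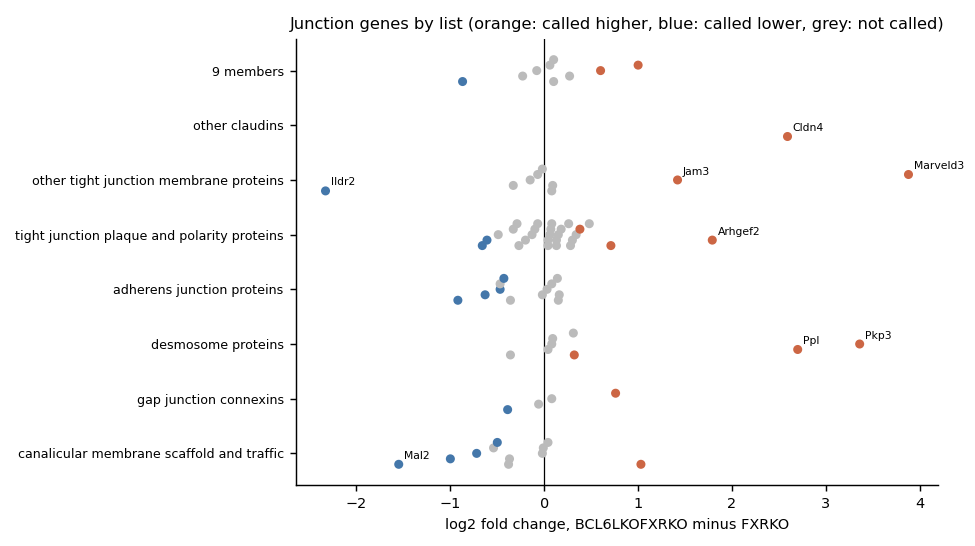
Log2 fold change, BCL6LKOFXRKO minus FXRKO (x axis), of each tested gene of the 9 and of the 7 other junction lists (rows). Orange is called higher, blue called lower and grey not called. Most points lie near 0, with *Marveld3*, *Pkp3*, *Ppl* and *Cldn4* far to the right and *Ildr2* and *Mal2* to the left.

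Of the 20 other claudins in the table, *Cldn4* alone passed the filter. It is a claudin of bile ducts and other epithelia, and it rose from 2 to 4 counts per FXRKO liver to 14 to 38 counts per BCL6LKOFXRKO liver, a log2 fold change of 2.59 (edgeR adjusted p = 0.00057). In FXRKO livers this rests on a handful of counts, and *Cldn4* was not tested where at least 10 counts were required in every liver. *Cldn4* is also 1 of 14 bile duct markers, of which 9 were tested, 5 rose and none fell. That was 55.6% called, against 29.7% of all tested genes in either direction. *Cldn4*, *Prom1* and *Krt19*, at 2 to 4, 5 to 13 and 5 to 20 counts per FXRKO liver, passed the filter on BCL6LKOFXRKO counts. Such genes enter the test only if they are high in BCL6LKOFXRKO livers, which tilts the share called toward rises. The summed level of the 14 was 63.0 to 93.3 CPM in FXRKO and 121 to 229 CPM in BCL6LKOFXRKO livers. Most of that difference came from *Spp1*, at a mean of 43.4 and 87.2 CPM, and *Prom1*, at 0.969 and 30.6 CPM, both named after their values were seen. Without these the other 12 summed to 22.4 to 38.5 and 36.3 to 50.2 CPM, which overlapped. *Sox9*, also named after its value was seen, had a log2 fold change of -0.81 (edgeR adjusted p = 0.0773). The duct keratin gene *Krt19* was at 0.537 to 2.08 and 1.66 to 3.09 CPM, a log2 fold change of 1.28 (edgeR adjusted p = 0.0271), and *Epcam* had one of 0.78 (edgeR adjusted p = 0.0683). None of the 14 was at 0 in every liver, and 5 were too low to be tested, among them *Krt7*, *Cftr* and *Cldn7*. Bile ducts also make *Cldn3*, *Ocln*, *Tjp1* and *F11r*. The part of the duct markers in the values of these genes was not tested.

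Among 9 tested membrane proteins of the tight junction other than claudins, 2 rose and 1 fell, 33.3% against 29.7% of all tested genes. *Marveld3*, a relative of occludin, showed the largest rise of all the junction genes tested, at only 5 to 13 counts per FXRKO liver. It went from 0.625 to 1.35 CPM in FXRKO to 8.01 to 18.5 CPM in BCL6LKOFXRKO livers. Where at least 10 counts were required in every liver it was not tested. Its log2 fold change was 3.88 (edgeR adjusted p = 1.97e-06). Its relative *Marveld2* (tricellulin), which sits where 3 cells meet, was named after its value was seen and had one of -0.02 (edgeR adjusted p = 0.941). *Jam3* (JAM-C) rose by 1.42 on the log2 scale at 2 to 8 counts per FXRKO liver. Like *Marveld3*, it passed the filter only on BCL6LKOFXRKO counts and was not tested where at least 10 counts were required in every liver. *Ildr2*, an angulin of tricellular junctions, fell from 5.25 to 12.6 CPM to 1.01 to 2.55 CPM, a log2 fold change of -2.33 (edgeR adjusted p = 0.000156).

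Of 27 tested plaque and polarity genes, 3 rose, 2 fell and 22 were not called, 18.5% against 29.7% of all tested genes. *Arhgef2*, a RhoA exchange factor held at junctions, was at 3.33 to 4.16 CPM in FXRKO and 11.2 to 16.9 CPM in BCL6LKOFXRKO livers, a log2 fold change of 1.79 (edgeR adjusted p = 1.09e-05). The GTPase gene *Cdc42* rose by 0.38 and *Micall2*, a partner of Rab13, by 0.71 on the log2 scale (edgeR adjusted p = 0.0242 and 0.0481). Both calls were weak, that of *Cdc42* being lost under 6 and that of *Micall2* under 11 of 15 alternative settings. The multi-PDZ scaffold gene *Mpdz* and the atypical protein kinase C gene *Prkcz* fell, with log2 fold changes of -0.66 and -0.61.

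At the adherens junction, 4 of 12 tested genes fell and none rose, 33.3% called against 29.7% of all tested genes in either direction (13.5% lower). They were *Vcl* (vinculin, log2 fold change -0.92), *Nectin2* (-0.63), the N-cadherin gene *Cdh2* (-0.43) and, outside the naming rule and named after its value was seen, *Nectin3* (-0.47). Of 8 desmosome genes 3 rose and none fell, 37.5% called against 29.7% of all tested genes in either direction (16.2% higher). The plakophilin gene *Pkp3* went from 0.322 to 1.70 CPM, only 3 to 18 counts per FXRKO liver, to 6.19 to 15.6 CPM. That was a log2 fold change of 3.36 (edgeR adjusted p = 4.25e-05). The periplakin gene *Ppl*, at 8 to 41 counts per FXRKO liver, had a log2 fold change of 2.70. Neither *Pkp3* nor *Ppl* was tested where at least 10 counts were required in every liver. *Pkp2* had a log2 fold change of 0.32 (edgeR adjusted p = 0.0494), a call lost under 11 of 15 alternative settings. Of 4 connexin genes, *Gja4*, an endothelial connexin, rose by 0.76 and *Gjb1*, the main hepatocyte connexin, fell with a log2 fold change of -0.39. That was 50% called, against 29.7% of all tested genes in either direction. Both calls were weak (edgeR adjusted p = 0.0252 and 0.0331). That of *Gja4* was lost under 4 and that of *Gjb1* under 5 of 15 alternative settings. *Gjb1* was at 712 to 874 CPM in FXRKO and 522 to 695 CPM in BCL6LKOFXRKO livers, without overlap.

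On the canalicular side of the junction, 4 of 11 tested scaffold and traffic genes fell and 1 rose, 45.5% called against 29.7% of all tested genes in either direction. *Slc9a3r1*, the scaffold NHERF1, fell from 258 ± 17.9 to 129 ± 17.4 CPM (SD, n = 4, edgeR adjusted p = 5.83e-05). *Mal2*, which carries proteins across the hepatocyte to the canaliculus, fell with a log2 fold change of -1.55. *Rdx* (radixin), which ties canalicular pumps to actin, fell with one of -0.50, and the fourth was *Ceacam1*, named after its value of -0.72 was seen. *Myo5b*, a motor that carries vesicles to the canaliculus, rose from 18.2 ± 1.92 to 37.2 ± 3.70 CPM (SD, n = 4), a log2 fold change of 1.03 (edgeR adjusted p = 5.87e-05).

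Lists of markers of other cells are set beside the 29.7% of all tested genes called in either direction. Of 9 stellate cell and fibroblast markers 6 rose and none fell, 66.7% called. Their sum was 227 to 318 CPM in FXRKO and 458 to 570 CPM in BCL6LKOFXRKO livers. Of 8 macrophage markers 2 rose and none fell, 25% called, with sums of 364 to 495 and 471 to 868 CPM. *Alb* rose from 38200 to 48500 CPM to 128000 to 147000 CPM. No periportal marker of 10 rose and 3 fell, 30% called, with sums of 3100 to 5260 and 1620 to 2210 CPM. Of 8 hepatocyte markers 3 rose and 1 fell, 50% called. The part of these in the values of the tight junction genes was not tested.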

How the data were processed

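Poly(A) RNA of 4 FXRKO and 4 BCL6LKOFXRKO male livers was sequenced with a stranded kit as 100 bp single-end reads. The authors used STAR 2.5.2 for alignment to mm10 (1 location, no more than 4 mismatches). Their deposited file holds raw exon counts from HOMER 4.10, with 1 transcript and its length per gene. Versions are from the submitters' processing notes. No strand option is given in the file header. Reads shared by near-identical sequences were dropped, and replicates were not pooled.

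The test was run in edgeR 4.0.16 under R 4.3.3 (filterByExpr, TMM, robust quasi-likelihood test, Benjamini-Hochberg adjustment over 12340 genes, no block). Intervals are 95%. RPKM are CPM over the deposited transcript length in kb. Permutation tests were exact and two-sided on log2(CPM + 1) over 70 orderings. DESeq2 1.42.0, which the study's methods name, and limma 3.58.1 voom were alternatives. In counts simulated for these 12340 genes with 200 changed, edgeR found 84% of the changed genes, with 9.68% false calls. That false share is above the adjusted p threshold of 0.05. In the livers 29.7% of tested genes were called, and recovery with so large a share changed was not tested. The 84% is not split by size of change, so it gives no recovery for the sizes seen in the 9 genes. Livers of a genotype differed beyond sampling noise, with chi-square per degree of freedom from 10 to 45.8. The labels give each liver as a separate sample. Counts of called genes cover these livers only, and the intervals rest on the variation among just 4 livers of each genotype.

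The 9 genes and all lists were chosen with earlier results of these data known, so no list is independent evidence. The genes named are the 9 and, in each junction list, up to 3 called genes a direction, by lowest adjusted p, with exceptions stated, the markers *Krt19*, *Epcam*, *Pecam1*, *Cdh5*, *Glul* and *Alb*, and the 3 genes most alike to the top called member of each direction. Ratios and shares were added after the data were seen. Protein sequences were not used here. Exon overlaps come from GENCODE M21 on GRCm38.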

Additional observations from a re-analysis of the deposited data

Results flagged for a closer look

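In 9 of 92 sets of 4 livers, 1 liver lay far from the rest, where chance gives about 4.6 (1 in 20). The ratio given is that liver's distance to its nearest neighbour divided by the range of the set.

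Among the tight junction genes, the ratio was 0.901 for *Cldn3* in FXRKO liver 4, at 63.2 CPM against 97.5 to 101 in the other 3. For *Tjp1* it was 0.843 in FXRKO liver 2, at 27.2 CPM against 23.1 to 23.8, and for *F11r* it was 0.866 in FXRKO liver 1, at 78.1 CPM against 68.2 to 69.5. *Arhgef2* had a ratio of 0.953 in FXRKO liver 3, at 3.33 CPM against 4.12 to 4.16, and *Vcl* one of 0.841 in BCL6LKOFXRKO liver 4, at 15.3 CPM against 21.8 to 23.1.

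Of the summed lists, the other claudins had a ratio of 0.925 in FXRKO liver 1 (3.64 CPM against 1.75 to 1.89) and the desmosome genes one of 0.845 in FXRKO liver 4 (344 CPM against 304 to 310). The stellate cell and fibroblast markers had one of 0.938 in BCL6LKOFXRKO liver 2 (570 CPM against 458 to 465) and the periportal markers one of 0.867 in FXRKO liver 1 (3100 CPM against 4980 to 5260). The low *Tjp1* value of BCL6LKOFXRKO liver 4 was not among these.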

How the results depend on the processing

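The calls of *Cldn12*, *F11r* and *Cldn5* held under all 15 alternatives run for each: RLE size factors, total counts alone, TMM without the 50 most counted genes, testing unfiltered genes, requiring at least 10 counts in every liver, DESeq2, limma voom and each liver left out. Their log2 fold changes lay from -1.03 to -0.81, from 0.44 to 0.64 and from 0.83 to 1.14, with adjusted p of at most 0.000754, 0.00503 and 0.0249. With a log2 fold change above 0.5 also required, all 3 stayed called.

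Genes not called changed sign near 0. With total counts alone the log2 fold changes were -0.06 for *Cldn3*, -0.07 for *Cldn14* and -0.09 for *Ocln*, and the median of all tested genes moved from 0.01 to -0.15. Over the fits that each left out 1 liver they ran from -0.06 to 0.20 for *Cldn3*, from -0.11 to 0.40 for *Cldn14*, from -0.17 to 0.25 for *Ocln* and from 0.18 to 0.47 for *Tjp1*, which was called only without BCL6LKOFXRKO liver 4 (its adjusted p over all alternatives was 0.00608 to 0.673). *Cldn14* was below 0 without FXRKO liver 3 (-0.09), FXRKO liver 4 (-0.11) or BCL6LKOFXRKO liver 2 (-0.02), and *Ocln* without FXRKO liver 1 (-0.04) or BCL6LKOFXRKO liver 1 (-0.17) or 3 (-0.04).

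Total counts alone called 2949 genes lower over all genes tested, against 1665, and 1404 higher, against 1994, so 32.3% of calls were higher against 54.5%. In the 7 other junction lists it called 7 higher and 19 lower, against 11 and 12. At least 10 counts in every liver left 7 higher, where genes low in FXRKO livers were not tested. Leaving out 1 liver gave 7 to 11 higher, with 7 without FXRKO liver 2, FXRKO liver 3 or BCL6LKOFXRKO liver 3, and 8 to 15 lower. For the genes of those lists that the naming rule gave, 41 of 310 alternative values lost the call and none changed sign, most often those of *Micall2* and *Pkp2*, which lost it under 11 of 15 alternatives each, and *Cdc42*, under 6. The genes named as exceptions were not followed across the alternatives. The cause was not tested. No paired analysis was possible because the genotypes share no number in the labels: the title numbers differ for all 8 livers, and nothing says that neighbouring numbers mark a pair.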

Other observations

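The claudins that did not pass the filter were low in every liver. Of the 20 claudins in the table beside the 9 genes described, 7 were at 0 counts in all 8 livers, which says only that none was detectable at this depth. *Cldn6* had 2 to 4 counts per FXRKO liver and 4 to 19 per BCL6LKOFXRKO liver, and *Cldn13* had 0 to 1 and 2 to 12. *Cldn23* had 0 to 1 and 2 to 7, and *Cldn7*, a bile duct claudin, 2 to 12 and 6 to 12. These genes were named after their values were seen and were too low for edgeR's test. By CPM, all 4 BCL6LKOFXRKO livers were above every FXRKO liver for *Cldn6*, *Cldn13* and *Cldn23*, and the genotypes overlapped for *Cldn7*. In counts, *Cldn6* was tied at 4 between FXRKO livers 1 and 4 and BCL6LKOFXRKO liver 2. Separation in either direction was seen in 31.3% of tested genes, which, unlike these, passed the filter. A permutation p for genes named with their order in view would be fixed in advance, so none is given.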
